A study of Homo sapiens with 96 samples.

Results

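The 44 genes described here encode proteins that build ribosomes, together with SRM and CAD, a pair of growth enzymes often grouped with them. They were taken by symbol from a list of 44 names, and each matched 1 of the 60552 gene rows of the count table. Their levels were read by bulk RNA-seq in 6 established human acute myeloid leukaemia lines, THP1, OCIAML3, MV411, MOLM13, Kasumi1 and HL60. Each line received DMSO vehicle, 1 µM of the LSD1 inhibitor GSK2879552 (552A in the sample labels), ATRA (all-trans retinoic acid) at 100 nM, or the 2 agents together (Combo), for 2 or 4 days. LSD1 is a histone demethylase, and ATRA is the retinoid that drives granulocytic differentiation in promyelocytic leukaemia. With 2 replicates in each of the 48 groups there were 96 libraries. Nothing in the labels says that the replicates were grown separately, so a p-value from the libraries of 1 line reflects their spread alone, and that spread may be technical. All 44 genes passed the filter on low counts in every fit. By role they were 3 RNA polymerase I subunits, 7 proteins of the small nucleolar ribonucleoproteins (snoRNPs), 11 small subunit factors, 15 large subunit assembly factors, 6 nucleolar regulators and the 2 enzymes.

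Ribosomes are assembled in the nucleolus. RNA polymerase I transcribes a long precursor RNA, snoRNPs guide its methylation and pseudouridylation, and the small subunit processome and the large subunit assembly factors cut, fold and package it with ribosomal proteins. The pathway is a known target of the transcription factor MYC, is active in proliferating blast cells, and slows as myeloid cells leave the cell cycle and differentiate.

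MYC and its partner MAX bind the E-box, whose canonical letters are CACGTG, a palindrome that reads the same on both strands. Promoter windows of 300 bases, from 250 before to 50 after the RefSeq gene start (GRCh38.p14), were matched for 38 of the 44 genes. The E-box letters were in 14 of these 38 windows (36.8%) and in 2030 of all 27305 RefSeq windows (7.4%). The first motif began before the start in 6 of the 14 and after it in 8, against 1814 and 216 over all windows. These matches describe letters and not binding. With Combo at day 4, 13 of the 14 were called lower, with a median log2 change of -0.76, and 20 of the other 24, with a median of -0.74. The stretches of 30 bases around the motif, which is in capitals, are shown for SRM, MYBBP1A and FBL as genes with large falls, for RRP9, PES1 and MRTO4 as assembly factors that fell, and for UTP20 as the gene of the 14 that was not called.
SRM: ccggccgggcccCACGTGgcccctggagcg
MYBBP1A: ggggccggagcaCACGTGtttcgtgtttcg
FBL: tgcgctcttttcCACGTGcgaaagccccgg
RRP9: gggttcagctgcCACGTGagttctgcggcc
PES1: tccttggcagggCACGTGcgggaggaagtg
MRTO4: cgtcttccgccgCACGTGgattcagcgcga
UTP20: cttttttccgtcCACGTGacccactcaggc
Each is printed 5′ to 3′ on the gene's strand. They lie at chr1:11060200-11060229 (SRM, minus strand), chr17:4555340-4555369 (MYBBP1A, minus strand), chr19:39846356-39846385 (FBL, minus strand), chr3:51941892-51941921 (RRP9, minus strand), chr22:30591880-30591909 (PES1, minus strand), chr1:19251807-19251836 (MRTO4, plus strand) and chr12:101280083-101280112 (UTP20, plus strand). The motif lies after the gene start in FBL, PES1, MRTO4 and MYBBP1A, by 7, 14, 15 and 28 bases. It begins before the start in RRP9, UTP20 and SRM, by 5, 10 and 199 bases, and in RRP9 it runs across the start.

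Total counts ran from 12.82 M to 40.95 M (M is 1e6) over the 96 libraries, with a median of 22.88 M, and the 44 genes took 0.261% to 1.337% of them. Levels are CPM, counts scaled to one library total with TMM factors, so they are relative to the rest of each library. In bulk RNA, fewer cells with high levels and less of a transcript in every cell cannot be told apart. Libraries differed in how counts depended on a gene's GC content, with slopes of -1.05 to 0.42 log2 units per 10% GC. At day 4 the mean slope of the Combo replicates was below that of DMSO in every line. It was 0.10 against 0.39 in HL60, -0.27 against 0.14 in Kasumi1 and -0.0017 against 0.11 in MOLM13. It was -0.35 against -0.23 in MV411, -0.32 against 0.25 in OCIAML3 and -0.074 against 0.21 in THP1. The day 4 means with ATRA and with 552A were also below DMSO in every line except MV411, where they were 0.23 and -0.13. At day 2 the mean with Combo was above DMSO in THP1 (0.28 against 0.21) and below it in the other lines. The part of these slopes in the falls with ATRA or Combo was not tested. The exons of the 44 genes had a median GC content of 51.96% against 48.27% over all genes tested, so counts of calls are also given with an offset for GC content and exon length. The myeloid genes PTPRC, CD33, SPI1, CSF3R, MPO and LYZ were above 1 CPM in all 6 lines. Among markers of other cell types, CD3E, MS4A1, HBB, KRT19 and COL1A1 were below 1 CPM in every line, while EPCAM reached 116 CPM in Kasumi1 and CD3D 13.6 CPM in MOLM13.

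With DMSO, NPM1, NCL and DDX21 had the highest levels of the 44 genes per exon length. NPM1, the histone chaperone nucleophosmin that is mutated in OCIAML3, had a mean over the lines of 532 RPKM (reads scaled by library total and exon length). NCL, or nucleolin, which binds the precursor RNA, had 149.8 RPKM, and the RNA helicase DDX21 had 109 RPKM. At the other end was the snoRNP protein GAR1, with 5.56 RPKM. HL60 had the highest level of 32 of the 44 genes, THP1 the lowest of 16 and Kasumi1 the lowest of 12. The level in the highest line exceeded that in the lowest by 1.30 to 10.9-fold (median 2.03). NPM3, a small relative of NPM1, spread the most, with 17.1 RPKM in THP1, 48.3 in MV411, 61.2 in OCIAML3, 68 in MOLM13, 143 in Kasumi1 and 187 in HL60. edgeR's quasi-likelihood F test over the 24 DMSO libraries called 43 of the 44 genes different between lines, against 92.8% of all genes. NOP16 was the gene not called (adjusted p = 0.0767).

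**Figure D1:**
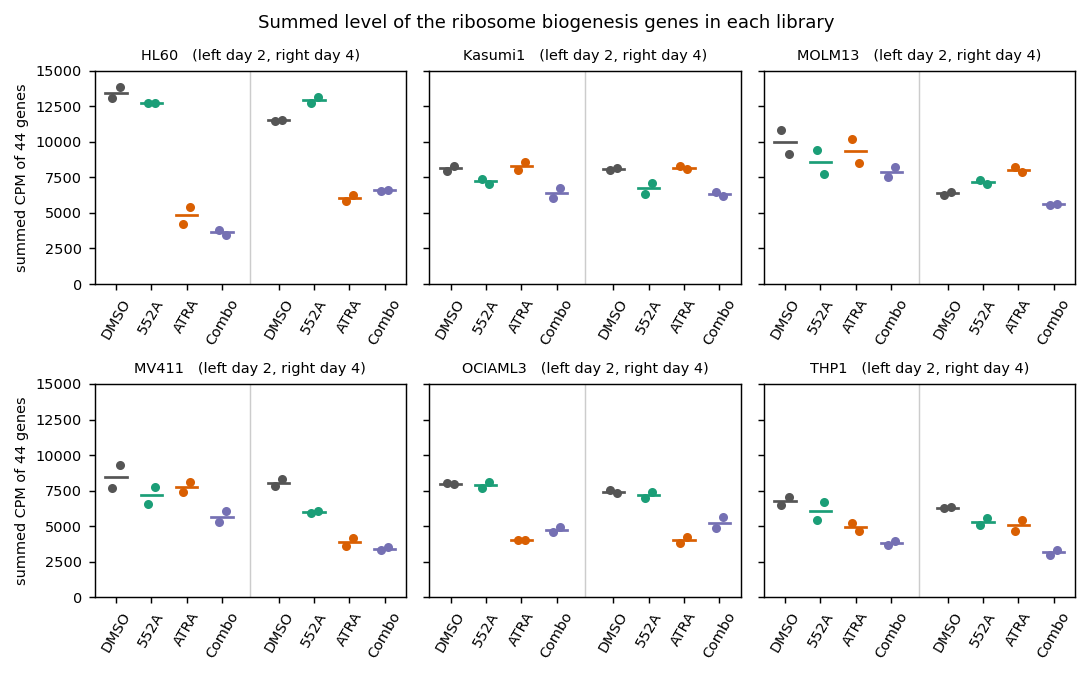
Summed level of the 44 genes in each library (vertical axis, CPM) by treatment and day in each line, with 1 point per replicate. ATRA and Combo libraries lie below DMSO on both days in HL60, OCIAML3 and THP1, ATRA overlaps DMSO in Kasumi1, and ATRA and 552A lie above DMSO in MOLM13 at day 4.

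Across the 6 lines at day 4, Combo lowered most of the 44 genes. edgeR's quasi-likelihood test on the sums of the 2 replicates, with the line as a block, called 39 of the 44 genes lower than with DMSO (adjusted p under 0.05) and 0 higher. The share of all genes called lower was 10.6%. The median log2 change of the 44 was -0.76, against 0.04 over all genes tested. With the offset 41 were called lower (10.5% of all genes), and without THP1 the count was 23. ATRA alone lowered 9 of the 44 (2.99% of all genes), with a median log2 change of -0.52 over the 44. They were FBL, BYSL, BOP1, RRP1, WDR74, NPM3, MYBBP1A, SRM and CAD. With the offset the count was 9 (2.84%), but BYSL, MYBBP1A and SRM no longer passed and POLR1B, WDR43 and WDR12 did. The count for ATRA was 1 without HL60, 0 without OCIAML3, 0 without THP1, 0 without replicate 1, 15 without replicate 2 and 15 with DESeq2. With 552A alone edgeR called 0 of the 44 (0.0124% of all genes lower), and 0 had p under 0.05 before adjustment, with DESeq2 calling 0. The median log2 change with 552A was -0.17, with 41 of 44 estimates below 0.

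**Figure D2:**
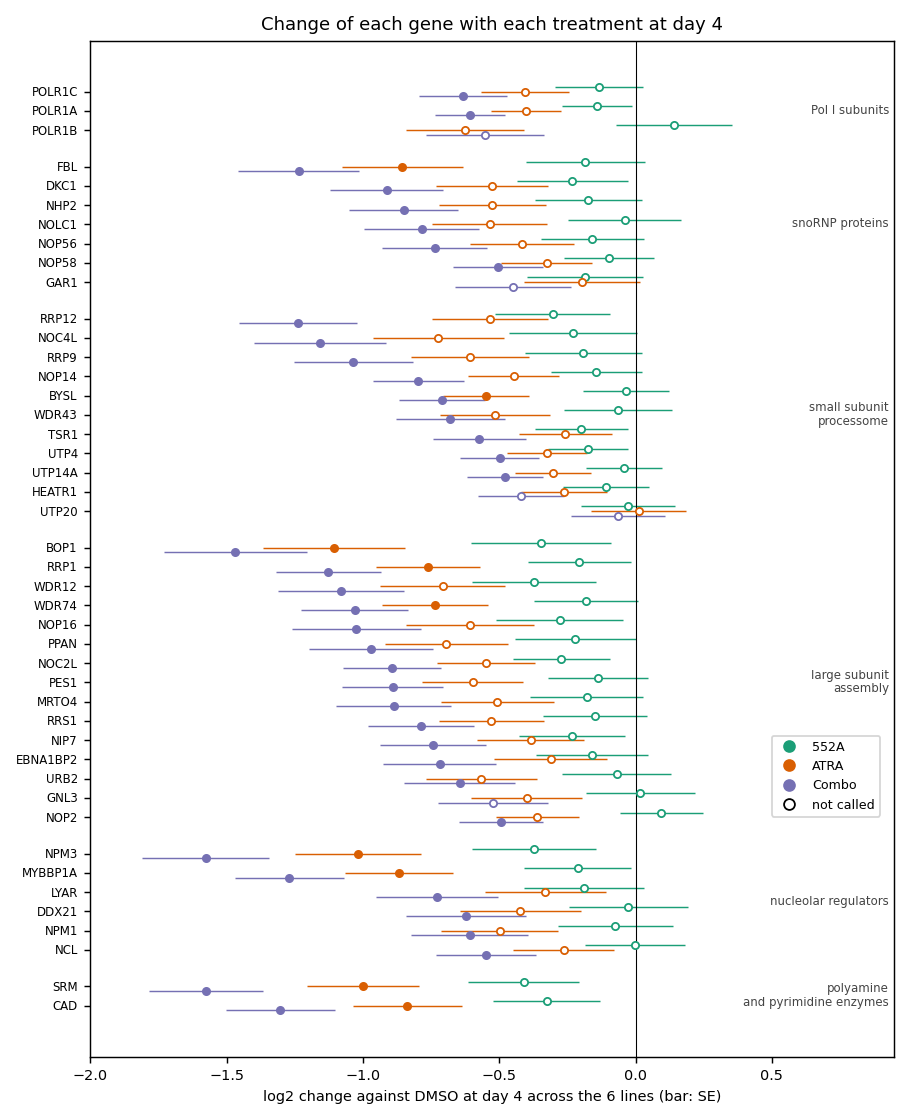
Log2 change of each of the 44 genes against DMSO at day 4 over the 6 lines (horizontal axis, bars are standard errors), grouped by role, with filled points for adjusted p under 0.05 in edgeR. The Combo estimate lies to the left of the ATRA estimate for every gene except POLR1B.

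Of the 3 RNA polymerase I subunits, 2 fell with Combo. POLR1A, the largest subunit, had 91.7, 119.7 and 153 CPM as the lowest, median and highest of 12 DMSO libraries at day 4, and 48.2, 84.3 and 109 CPM of 12 Combo libraries. These ranges overlapped, and POLR1A was lower in 6 of 6 lines, with a log2 change of -0.61 ± 0.13 (standard error, SE; adjusted p = 0.00320). POLR1B, the second-largest subunit, had 68.5, 117 and 138 CPM with DMSO and 36.7, 84.3 and 123 CPM with Combo. Its log2 change was -0.55 ± 0.22 (adjusted p = 0.0687), and it passed with the offset (adjusted p = 0.0244).

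Combo lowered 6 of the 7 snoRNP proteins. FBL, the methyltransferase fibrillarin of the box C/D snoRNPs, had 79.3, 151 and 317 CPM with DMSO, 28.3, 84.2 and 192 with ATRA and 32, 65.2 and 126 with Combo, given as lowest, median and highest. The ranges overlapped, with the median lowest with Combo. FBL fell by 1.24 ± 0.22 on the log2 scale with Combo (adjusted p = 0.00113) and by 0.86 ± 0.22 with ATRA (adjusted p = 0.0265). GAR1, a protein of the H/ACA snoRNPs that carry out pseudouridylation, was the exception. It had 6.40, 9.54 and 15.3 CPM with DMSO and 3.38, 7.70 and 13.1 CPM with Combo, a log2 change of -0.45 ± 0.21 (adjusted p = 0.132).

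Among the 11 small subunit factors 9 fell with Combo and 1, BYSL, with ATRA. RRP12, a factor of pre-40S maturation, had 26.1, 95.7 and 149 CPM with DMSO, 14.2, 54.9 and 168 with ATRA and 5.62, 34.2 and 124 with Combo. The ranges were wide and overlapped, and RRP12 was lower in 6 of 6 lines with Combo. Its log2 change was -1.24 ± 0.22 with Combo (adjusted p = 0.000970) and -0.53 ± 0.21 with ATRA (adjusted p = 0.125). UTP20, a large scaffold of the processome, had 69.7, 81.6 and 111 CPM with DMSO and 37.8, 96.5 and 129 CPM with Combo. The Combo libraries spread to both sides of the DMSO range, and UTP20 was lower in 2 of 6 lines, with a log2 change of -0.06 ± 0.17 (adjusted p = 0.820). HEATR1, the other gene of this group that did not pass (adjusted p = 0.0609), passed with the offset (adjusted p = 0.00501).

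Of the 15 large subunit assembly factors 14 fell with Combo and 3 with ATRA. BOP1, PES1 and WDR12 form a complex needed to process the large subunit precursor RNA. BOP1 had 32.1, 151 and 213 CPM with DMSO, 4.74, 65.2 and 180.3 with ATRA and 11.4, 44.1 and 144 with Combo. BOP1 fell by 1.47 ± 0.26 with Combo (adjusted p = 0.00112) and by 1.11 ± 0.26 with ATRA (adjusted p = 0.0189). WDR12 fell by 1.08 ± 0.23 with Combo (adjusted p = 0.00323) and PES1 by 0.89 ± 0.19 (adjusted p = 0.00281). RRP1, a nucleolar factor of large subunit maturation, had 23.5, 53.6 and 75.2 CPM with DMSO and 6.38, 23.3 and 51.7 CPM with Combo. RRP1 was lower in 6 of 6 lines, by 1.13 ± 0.19 on the log2 scale (adjusted p = 0.000866). GNL3, the nucleolar GTPase nucleostemin, was the gene of this group that did not pass, at -0.52 ± 0.20 (adjusted p = 0.0665), and it passed with the offset (adjusted p = 0.0151). NOP2, an RNA methyltransferase, fell (log2 change -0.49 ± 0.15, adjusted p = 0.0266) but did not pass with the offset (adjusted p = 0.0807). Other genes on the same strand cover 59.8% of the exon bases of PPAN and 54.4% of those of NOP2, so these counts are uncertain.

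All 6 nucleolar regulators fell with Combo, by different amounts. NPM3 had 11, 49.2 and 181 CPM with DMSO, 5.47, 20.8 and 128 with ATRA and 3.72, 22 and 81.6 with Combo. Its ranges overlapped, and it was lower in 6 of 6 lines with Combo. NPM3 fell by 1.58 ± 0.23 with Combo (adjusted p = 0.000371) and by 1.02 ± 0.23 with ATRA (adjusted p = 0.0161). MYBBP1A, a nucleolar corepressor, fell by 1.27 ± 0.20 with Combo (adjusted p = 0.000531). NPM1 had 1303, 1507 and 3878 CPM with DMSO and 553, 1284 and 2275 CPM with Combo. NPM1 fell by 0.61 ± 0.21 (adjusted p = 0.0457), DDX21 by 0.62 ± 0.22 (adjusted p = 0.0476) and NCL by 0.55 ± 0.18 (adjusted p = 0.0372). NPM1 has processed pseudogenes, and how reads shared with them were counted is not given in the sources used here.

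Both enzymes fell with ATRA and with Combo. SRM, spermidine synthase, makes a polyamine that growing cells need. It had 16.7, 53.3 and 81.8 CPM with DMSO, 14.3, 24.7 and 46.1 with ATRA and 2.75, 17.6 and 33.9 with Combo. SRM fell by 1.58 ± 0.21 with Combo (adjusted p = 0.000207) and by 1.00 ± 0.21 with ATRA (adjusted p = 0.0101), a fall that did not pass with the offset (adjusted p = 0.0677). CAD, which starts pyrimidine synthesis, had 69.9, 147 and 245 CPM with DMSO and 18.4, 68.2 and 120.0 with Combo. CAD fell by 1.30 ± 0.20 with Combo (adjusted p = 0.000462) and by 0.84 ± 0.20 with ATRA (adjusted p = 0.0194).

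**Figure D3:**
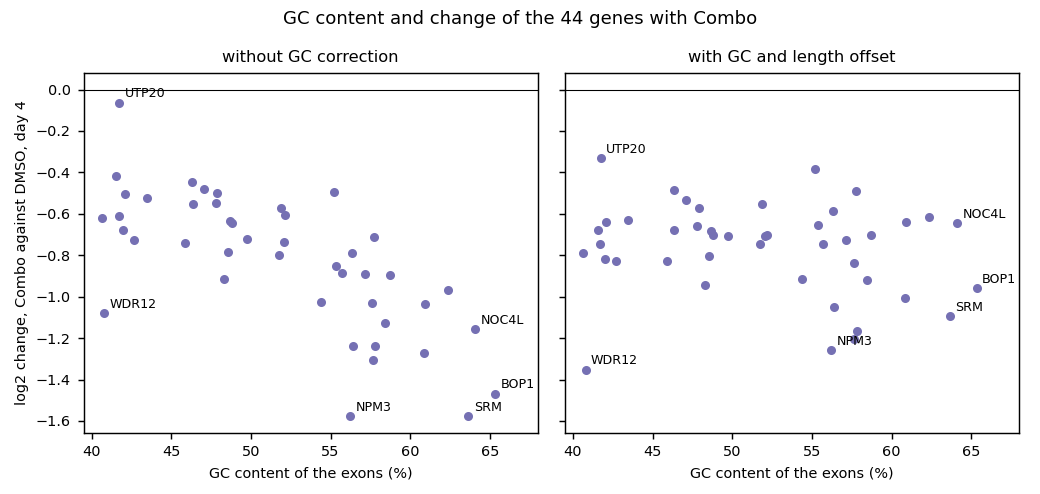
GC content of the exons (horizontal axis, percent) and log2 change with Combo at day 4 (vertical axis) of the 44 genes, 1 point per gene, without (left) and with (right) the GC and length offset. The points slope down on the left (Pearson r = -0.72) and less so on the right (r = -0.20), where the offset takes out the GC trend by design.

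GC content moved with these changes. Over the 44 genes, GC content and the log2 change had a Pearson r of -0.72 and a Spearman rho of -0.72 with Combo, and -0.67 and -0.68 with ATRA. The genes share libraries, so they are not independent points. With the offset r was -0.20 and rho -0.17 with Combo, and -0.30 and -0.28 with ATRA. The offset takes out each library's trend with GC content, so a weaker correlation follows from its design. It would also take out any real change that runs with GC content. The offset moved the log2 change with Combo of SRM from -1.58 to -1.09 and of NPM3 from -1.58 to -1.26. It moved WDR12 the other way, from -1.08 to -1.35, and UTP20 from -0.06 to -0.33. The median over the 44 genes was -0.71 with the offset.

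The treatments were also set against each other across lines at day 4. With Combo, 23 of the 44 genes were lower than with 552A (3.72% of all genes). The largest of these differences were in NPM3 (-1.21 ± 0.23, adjusted p = 0.00817) and SRM (-1.17 ± 0.21, adjusted p = 0.00677). The count was 10 without HL60, 7 without MV411, 4 without OCIAML3, 3 without THP1 and 2 without replicate 2. Between Combo and ATRA edgeR called 0 (0.0207% of all genes lower), and 5 had p under 0.05 before adjustment, with DESeq2 calling 0. The median of that difference was -0.31, with 43 of 44 estimates below 0 and RRP12 at -0.70 ± 0.21 (adjusted p = 0.216). Against the sum of the single-agent effects on the log2 scale, edgeR called 0 (0% of all genes), and 0 had p under 0.05 before adjustment, with DESeq2 calling 0. There 44 of 44 estimates were below 0, with a median of -0.14 against -0.01 over all genes tested. With the offset these medians were -0.08 and 0.03. The genes share libraries, so their estimates are not independent.

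At day 2 across lines, Combo lowered 40 of the 44 genes (12% of all genes), with a median log2 change of -0.87. NPM3 (-1.67 ± 0.34, adjusted p = 0.00262) and BOP1 (-1.62 ± 0.38, adjusted p = 0.00583) led. ATRA lowered 15 (4.4%), led by BOP1 (-1.46 ± 0.39, adjusted p = 0.0298) and NOC4L (-1.18 ± 0.30, adjusted p = 0.0250), and 5 with the offset (2.11%). The count for ATRA was 1 without HL60, 9 without MOLM13, 3 without MV411, and 0 without OCIAML3, without THP1, without replicate 1 or without replicate 2. Without replicate 1 the count for Combo was 21. With 552A edgeR called 0 (0.381% of all genes lower), and 12 had p under 0.05 before adjustment, with DESeq2 calling 1.

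Between the days, edgeR called no difference in the effect of 552A (0% of all genes), ATRA (0%) or Combo (0%) for any of the 44 genes. In each of these 0 had p under 0.05 before adjustment, with DESeq2 calling 0. With DMSO the median log2 difference of day 4 from day 2 was -0.24, with 44 of 44 estimates below 0. edgeR called 0 (0% of all genes), and 2 had p under 0.05 before adjustment, with DESeq2 calling 0.

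Within single lines, each fitted on its 16 libraries, the lines gave different counts. Of the 264 pairs of a gene and a line at day 4, edgeR called 6 lower with 552A (1.01% of all pairs of a tested gene and a line), 90 with ATRA (7.22%), and 126 with Combo (9.94%). With 552A the count ran from 3, without MV411 552A replicate 2 or MV411 DMSO replicate 2, to 18, without Kasumi1 Combo replicate 1, and it was 17 without Kasumi1 Combo replicate 2 and 12 with DESeq2. With the offset the counts were 64 with 552A (5.4% of all pairs), 162 with ATRA (14.7%), and 203 with Combo (18.4%).

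**Figure D4:**
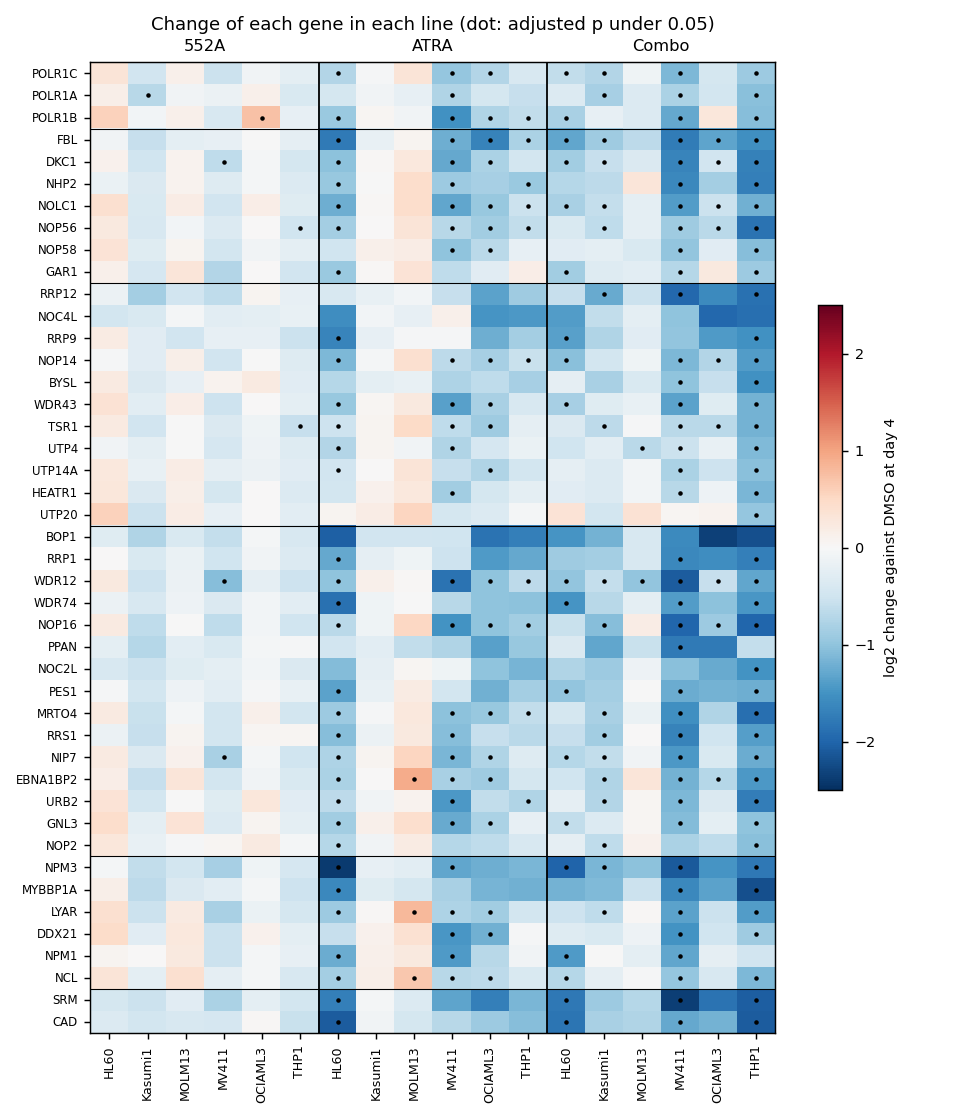
Log2 change against DMSO at day 4 of each of the 44 genes (rows, grouped by role) in each line and treatment (columns), on a colour scale. Dots mark adjusted p under 0.05 in edgeR. With ATRA, HL60 has 33 genes called lower, Kasumi1 none, and MOLM13 has 3 called higher.

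In HL60, the line with the highest starting levels, most of the 44 genes fell with ATRA on both days. Their summed level at day 2 was 13066 and 13843 CPM in the DMSO replicates, 4244 and 5422 CPM with ATRA and 3818 and 3475 CPM with Combo. At day 4 it was 11433 and 11558 CPM with DMSO, 12745 and 13179.8 with 552A, 5822 and 6273 with ATRA and 6574 and 6584 with Combo. The ATRA and Combo sums lay below DMSO on both days, without overlap, and the 552A sums at day 4 lay above DMSO, without overlap. ATRA lowered 43 genes at day 2 (13.9% of all genes) and Combo 42 (19.1%). At day 4 ATRA lowered 33 (14.6%), and 38 with the offset (22%). Combo lowered 19 (14.3%), and 33 with the offset (21.9%). NPM3 had the largest called fall at day 4, with 181 and 136 CPM with DMSO, 45.1 and 18.9 with ATRA and 51.4 and 32.4 with Combo. The log2 change of NPM3 with ATRA was -2.40 ± 0.35 (adjusted p = 0.000305). The GC slopes of those ATRA replicates were 0.41 and -0.55, and their part in the result was not tested. NPM1 had 3662 and 3878 CPM with DMSO and 1338 and 2088 CPM with ATRA, a log2 change of -1.24 ± 0.24 (adjusted p = 0.00208). With 552A edgeR called 0 at day 4 (0.139% of all genes lower), and 3 had p under 0.05 before adjustment, with DESeq2 calling 0. With the offset 0 were lower (0.957%) and 1 higher (1.86%). Between Combo and ATRA edgeR called 0 (0.626% of all genes lower), and 4 had p under 0.05 before adjustment, with DESeq2 calling 0. With the offset 1 was higher with Combo than with ATRA (3.35%).

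In Kasumi1 18 of the 44 genes fell with Combo at day 4, and edgeR called 0 with ATRA. Summed levels at day 4 were 7999 and 8127 CPM with DMSO, 8268 and 8081 with ATRA, 6360.0 and 7104 with 552A and 6473 and 6170.4 with Combo. The ATRA replicates overlapped DMSO, and those with 552A and Combo lay below both. With ATRA edgeR called 0 (0.0167% of all genes lower; 0.0944% with the offset, and 0 of the 44), and 0 had p under 0.05 before adjustment, with DESeq2 calling 0. Combo lowered 18 (3.36%), and 36 with the offset (11.7%). 552A lowered 1, POLR1A (0.867%), and 24 with the offset (7.49%). POLR1A had 124 and 125 CPM with DMSO and 82.3 and 73.3 with 552A (log2 change -0.70 ± 0.15, adjusted p = 0.0147). RRP12 had the largest called fall with Combo, from 118 and 113 CPM to 28.3 and 69.4 CPM (log2 change -1.27 ± 0.35, adjusted p = 0.0398). The GC slopes of those Combo replicates were -0.73 and 0.19, and their part in the result was not tested. Combo was below ATRA for 15 genes (1.89% of all genes), and for 36 with the offset (10.1%).

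MOLM13 was the line in which members were called higher with ATRA at day 4, and its DMSO libraries changed between the days. EBNA1BP2, a large subunit factor, had 47.4 and 57 CPM with DMSO and 97.5 and 109 with ATRA, a log2 change of 0.92 ± 0.20 (adjusted p = 0.0136). NCL had 632 and 770.3 CPM with DMSO and 1289 and 1069 with ATRA (0.68 ± 0.19, adjusted p = 0.0435). LYAR, a nucleolar zinc finger protein, had 31.7 and 37.4 CPM with DMSO and 65.7 and 61.8 with ATRA (0.82 ± 0.19, adjusted p = 0.0187). These 3 were the members called higher (5% of all genes), and their ATRA replicates lay above DMSO without overlap. At day 2 the DMSO libraries had 138 and 119 CPM of EBNA1BP2, 1314 and 1311 CPM of NCL and 76.4 and 70.8 CPM of LYAR. The summed level with DMSO was 10799 and 9136 CPM at day 2 and 6269 and 6479 CPM at day 4, where ATRA had 8194 and 7878 CPM and 552A 7314 and 7059.9 CPM. The ATRA and 552A sums at day 4 both lay above DMSO, without overlap. In a test added after these values were seen, 5 genes were lower with DMSO at day 4 than at day 2 (2.03% of all genes): EBNA1BP2 (log2 change -1.29, adjusted p = 0.0100), LYAR, NCL, NOP14 and NOLC1. With the offset 24 were (8.39%), and DESeq2 called 10 lower. In the other 5 lines edgeR called 0 without the offset, with p under 0.05 before adjustment for 12 in HL60, 5 in MV411 and 0 in Kasumi1, OCIAML3 and THP1. In HL60 the offset gave 7 lower (1.68% of all genes) and DESeq2 2, while in the other 4 of these lines both gave 0.

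Lower calls were few in MOLM13. With ATRA 0 were called lower (3.41% of all genes; 8.25% with the offset, and 0 of the 44), and 9 had p under 0.05 before adjustment in either direction, with DESeq2 calling 0 lower. Combo lowered 2 of the 44, UTP4 and WDR12, a share near that of all genes (5.93%), and 9 with the offset (12.4%). WDR12 had 169 and 165 CPM with DMSO, 195 and 161 with ATRA and 80.5 and 91.1 with Combo (log2 change with Combo -0.99 ± 0.21, adjusted p = 0.00698). With 552A edgeR called 0 (0.314% of all genes lower; 1.19% with the offset, and 0 of the 44), and 0 had p under 0.05 before adjustment, with DESeq2 calling 0. Combo was below ATRA for 4 genes (2.1%), WDR12, LYAR, NCL and NOLC1, and for 13 with the offset (5.82%).

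**Figure D5:**
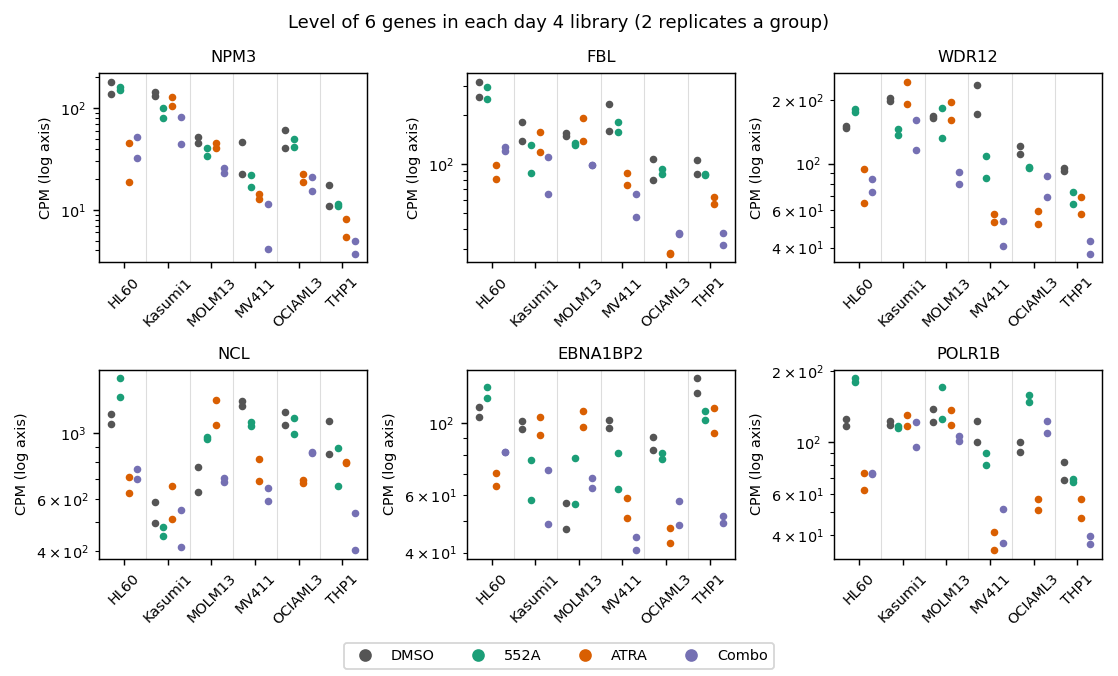
CPM of NPM3, FBL, WDR12, NCL, EBNA1BP2 and POLR1B (log axis) in each day 4 library by line, with 1 point per replicate coloured by treatment. In MOLM13 the ATRA points of EBNA1BP2 and NCL lie above the DMSO points, and in OCIAML3 the ATRA points of POLR1B lie below those of the other treatments.

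In MV411 27 of the 44 genes fell with ATRA at day 4 and 0 at day 2. The summed level at day 2 was 7690.0 and 9296 CPM with DMSO and 7401 and 8137 with ATRA, and these overlapped. At day 2 edgeR called 0 with ATRA (3.51% of all genes lower), and 1 had p under 0.05 before adjustment, with DESeq2 calling 0. With the offset 3 were lower with ATRA at day 2 (8.21%). The difference between the days was not tested within the line. Combo lowered 22 at day 2 (8.72%), and 37 with the offset (16.8%). At day 4 the sums were 7797 and 8312 CPM with DMSO, 5904 and 6049 with 552A, 3589 and 4141 with ATRA and 3348 and 3504 with Combo, and no treated group overlapped DMSO. ATRA lowered 27 genes (13.9%), and 40 with the offset (20.8%). Combo lowered 38 (13.6%), and 43 with the offset (20.4%). SRM had the largest called fall with Combo, from 69.9 and 16.7 CPM to 13.5 and 2.75 CPM (log2 change -2.36 ± 0.72, adjusted p = 0.0277). Its replicates lay far apart in both groups, and in replicate 2 of each, the lower one, the GC slopes were -0.62 and -0.76. The part of the GC slopes in this result was not tested. WDR12 had closer replicates, with 172 and 235 CPM with DMSO, 57.6 and 52.8 with ATRA and 40.6 and 53.4 with Combo (log2 change with Combo -2.08 ± 0.22, adjusted p = 2.08e-05). 552A lowered 3 genes, WDR12, NIP7 and DKC1 (1.7%), and 16 with the offset (7.33%). Between Combo and ATRA edgeR called 0 (8.2% of all genes lower), and 14 had p under 0.05 before adjustment, with DESeq2 calling 2. With the offset 5 were lower with Combo than with ATRA (13.6%) and 1 was higher (16.5%).

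In OCIAML3 21 of the 44 genes fell with ATRA at day 2 and 20 at day 4. The summed level at day 4 was 7527 and 7332 CPM with DMSO, 3854 and 4273 with ATRA and 4901 and 5620.3 with Combo. ATRA lay below Combo and Combo below DMSO, without overlap. ATRA lowered 21 genes at day 2 (4.74% of all genes) and 20 at day 4 (5.78%), and 43 with the offset at day 2 (17.1%) and 43 at day 4 (16.9%). Combo lowered 19 at day 2 (4.35%) and 9 at day 4 (5.14%), and 40 with the offset at day 2 (17.7%) and 39 at day 4 (17.2%). FBL had 108 and 79.3 CPM with DMSO, 28.4 and 28.3 with ATRA and 37.2 and 37.9 with Combo. The log2 change of FBL with ATRA was -1.67 ± 0.28 (adjusted p = 0.00218). POLR1B had 99.9 and 90.3 CPM with DMSO, 147 and 159 with 552A, 51.3 and 57.1 with ATRA and 109 and 123 with Combo. POLR1B rose with 552A (0.73 ± 0.14, adjusted p = 0.0145), fell with ATRA (-0.76 ± 0.14, adjusted p = 0.00356) and was higher with Combo than with ATRA (1.04 ± 0.14, adjusted p = 0.00210). It was the 1 member called higher with 552A (1.86% of all genes) and the 1 called between Combo and ATRA (1.5% of all genes higher). With the offset 3 were higher with Combo than with ATRA (4.28%). With 552A 0 were called lower (0.803%; 3.12% with the offset, and 0 of the 44), and 1 had p under 0.05 before adjustment in either direction, with DESeq2 calling 0 lower.

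In THP1 Combo lowered more genes than ATRA did, and the difference between them was itself called for many. The summed level at day 4 was 6276 and 6335 CPM with DMSO, 5065 and 5577 with 552A, 4686 and 5423 with ATRA and 2957 and 3348 with Combo, and the Combo replicates lay below all others. ATRA lowered 18 genes at day 2 (5.82% of all genes) and 10 at day 4 (5.38%), and 41 with the offset at day 2 (18.8%) and 41 at day 4 (19.3%). Combo lowered 30 at day 2 (13.5%) and 40 at day 4 (16.8%), and 43 with the offset at day 4 (26.1%). Combo was below ATRA for 24 genes (7.69%), led by MRTO4 (-1.27 ± 0.17, adjusted p = 0.000295), which helps to assemble the ribosomal stalk. With the offset it was 41 genes (15.2%). MRTO4 had 133 and 107 CPM with DMSO, 80.9 and 86.2 with ATRA and 37.6 and 30.9 with Combo. MYBBP1A had the largest called fall with Combo, from 50.4 and 49.5 CPM to 16.6 and 5.86 CPM (log2 change -2.21 ± 0.59, adjusted p = 0.0117). Its Combo replicates lay far apart. Their GC slopes were 0.29 and -0.44, and the part of these slopes in the result was not tested. UTP20, which was not called across lines, fell with Combo in THP1 at day 4, from 82.3 and 82.2 CPM to 37.8 and 50.4 CPM (log2 change -0.98 ± 0.21, adjusted p = 0.00347). 552A lowered 2 genes, TSR1 and NOP56 (2.16%), and 24 with the offset (12.1%).

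The differences in response between lines were tested with an F test over the 48 day 4 libraries. It called 30 of the 44 genes with ATRA (31.4% of all genes), 27 with Combo (33.6%) and 9 with 552A (5.69%). With the offset these counts were 44 (51.9% of all genes), 44 (55.4%), and 27 (18.7%). EBNA1BP2 was called with ATRA (adjusted p = 2.42e-06), with log2 changes of 0.92 in MOLM13 and -0.79 in HL60. POLR1B was called with 552A (adjusted p = 0.00697), ATRA (4.25e-05) and Combo (1.67e-05). NPM3 and SRM, with the largest falls across lines, were not called with Combo (adjusted p = 0.443 and 0.593). With the offset both were called (adjusted p = 0.0152 and 0.000183). From the largest to the smallest, the log2 changes of SRM with Combo were -2.36 in MV411, -2.07 in THP1, -1.84 in OCIAML3, -1.79 in HL60, -0.91 in Kasumi1 and -0.71 in MOLM13.

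Other genes of the pathway were read from lists that do not contain the 44. The shares of all genes called lower, given above, were 10.6% with Combo and 2.99% with ATRA, and 10.5% with Combo and the offset. With Combo at day 4 across lines, 71 of 79 ribosomal protein genes fell (median log2 change -0.63; 74 with the offset), and 49 with ATRA (median -0.53). RPS2 fell by 1.23 ± 0.18 with Combo (adjusted p = 0.000348) and RPS21 by 0.89 ± 0.13 (adjusted p = 0.000402). Ribosomal protein genes have many processed pseudogenes, which makes their counts uncertain. Of 43 other large subunit factors 18 fell (median -0.39; 29 with the offset), among them NLE1, which acts in pre-60S maturation (-1.57 ± 0.25, adjusted p = 0.000561), and NOP53 (-0.96 ± 0.17, adjusted p = 0.00113). Of 48 other small subunit factors 13 fell (median -0.29; 27 with the offset), among them the RNA acetyltransferase NAT10 (-0.96 ± 0.18, adjusted p = 0.00143) and NOL6 (-0.74 ± 0.14, adjusted p = 0.00180). In that list 1 gene rose, UTP14C (0.37 ± 0.11, adjusted p = 0.0251), but it did not pass with the offset (adjusted p = 0.131). UTP14C is a retrocopy of UTP14A, so reads of the pair may be split uncertainly. ALG11, on the same strand, also covers 74.2% of the exon bases of UTP14C. Of 23 other snoRNP and exosome genes 9 fell (median -0.39; 14 with the offset). They included RUVBL2, an ATPase that helps to assemble snoRNPs (-1.5 ± 0.24, adjusted p = 0.000598), and the exosome subunit EXOSC5 (-1.26 ± 0.19, adjusted p = 0.000411). Of 18 other genes of the RNA polymerase I machinery 4 fell (median -0.22; 7 with the offset), among them the subunits POLR1H (-0.98 ± 0.16, adjusted p = 0.000561) and POLR2H (-0.76 ± 0.16, adjusted p = 0.00309).

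MYC, a known regulator of ribosome biogenesis, was read beside the 44 genes. Over 12 libraries each at day 4, MYC had 241, 529 and 1775 CPM as the lowest, median and highest with DMSO, 29.1, 84.7 and 667 with ATRA and 6.57, 84.2 and 409 with Combo. With 552A it had 117, 283 and 2835 CPM, a range that overlapped DMSO, and MYC was not called. MYC fell, with a log2 change of -2.14 ± 0.54 with ATRA (adjusted p = 0.0239) and -2.98 ± 0.55 with Combo (adjusted p = 0.00133). In Kasumi1, where ATRA gave no call among the 44, MYC had 494 and 634 CPM with DMSO and 377 and 667 CPM with ATRA, which overlapped. In MOLM13, where Combo lowered 2 of the 44, MYC had 580.4 and 719 CPM with DMSO and 189 and 173 CPM with Combo (log2 change -1.87 ± 0.36, adjusted p = 0.00298). In MV411 MYC had 565 and 403 CPM with DMSO and 11.5 and 6.57 CPM with Combo (log2 change -5.70 ± 0.55, adjusted p = 1.16e-05). Of 10 genes of the MYC network 2 fell with Combo (3 with the offset), MYC and MXI1 (-1.44 ± 0.23, adjusted p = 0.000584), which encodes a MAX-binding antagonist of MYC. In that list 0 were called higher, but 1 was with the offset and 1 with DESeq2. MYCN, a relative of MYC, had 4.41 and 4.75 CPM with DMSO and 2.46 and 3.16 CPM with Combo in Kasumi1 at day 4. The part of MYC in the changes of the 44 genes was not tested.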

How the data were processed

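RNA from 96 libraries (6 lines, 4 treatments, 2 days, 2 replicates) was sequenced after a stranded total RNA preparation (per the labels). The authors deposited raw counts per gene, and the submitters' processing notes name Trimmomatic 0.36, STAR 2.4.2a, HTSeq 0.6.0 and GRCh38. The strand setting and the annotation release used for counting are not given in the sources used here. Rows that matched no gene of GENCODE 29 took 0.0417% of the counts. Genes were filtered with filterByExpr, scaled with TMM and tested in edgeR 4.0.16 under R 4.3.3 by quasi-likelihood, two-sided, with Benjamini-Hochberg adjustment over all genes tested and a threshold of 0.05. Across lines, the 2 replicates were summed and the line was a block (24 sums per day, 6 lines). Within lines, the 16 libraries of a line were fitted as 8 groups. Differences between lines were tested with an F test. The standard errors given were derived as the absolute log2 change over the square root of the quasi-likelihood F statistic. CPM were computed from the deposited counts with TMM factors. The offset for GC content and exon length was fitted per library. DESeq2 1.42.0, RLE factors, no filter, the offset, and fits without lines, replicates or libraries were alternatives. The fits without the 8 libraries with a GC slope under -0.5, and the comparison of days with DMSO within each line, were chosen after seeing the data. The scripts were tested on simulated counts. Libraries were not treated as paired by replicate number. Replicates differed by a chi-square of at least 9.9 times its degrees of freedom, so no replicates agreed within sampling noise.

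The members, the other lists and the tests were chosen with earlier results of these data known. Values are given for the members with the smallest and largest p in each role, the largest called fall and rise in each line and across lines, SRM, CAD, NCL and NPM1, members called higher, and the 2 smallest p of each other list, with MYC and MYCN. Other genes named were chosen after their values were seen. Promoter letters came from RefSeq (GRCh38.p14). Some marker genes are not reported here.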

Additional observations from a re-analysis of the deposited data

Results flagged for a closer look

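The response of single genes differed between the 6 lines at day 4 by a test of the difference itself, edgeR's F test over the lines. It called 9 of the 44 genes with 552A, 30 with ATRA and 27 with Combo. Over all genes the shares called were 5.69%, 31.4% and 33.6%. In 40 checks, of the log2 changes of 20 genes over the 6 lines with ATRA and with Combo, no single line stood apart from the others by Dixon's test.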

How the results depend on the processing

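Of 560 values of single genes under an alternative, 483 kept their direction and side of the threshold, 58 no longer passed, 13 newly passed and 6 changed sign. The 6 were all of UTP20, which was called neither with ATRA nor with Combo at day 4. With ATRA its log2 change was -0.12 with the GC and length offset, -0.022 without Kasumi1, -0.074 without MOLM13 and -0.0012 without replicate 2, and leaving out 1 line or replicate gave -0.074 to 0.086. With Combo it was 0.086 without THP1 and 0.031 without replicate 1, within a range of -0.15 to 0.086. The causes were not tested.

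Across lines, leaving out 1 line or replicate gave 0 to 15 genes lower with ATRA at day 4, 23 to 36 with Combo at day 4, 0 to 1 with 552A at day 2 (1 without HL60), 0 to 18 with ATRA at day 2, 21 to 39 with Combo at day 2 and 2 to 23 for Combo against 552A. It gave 0 to 0 for 552A at day 4, for Combo against ATRA and for the difference from the sum of the single agents. DESeq2 gave 15 with ATRA at day 4 and 1 with 552A at day 2, and the offset gave 5 with ATRA at day 2. Combo against 552A gave 10 without the 5 libraries that stand apart by GC trend and 11 without the 8 with the steepest trends, the latter chosen after seeing the data. Within lines, leaving out 1 day 4 library gave 3 to 18 pairs of a gene and a line lower with 552A, 73 to 93 with ATRA and 110 to 139 with Combo. The lowest count with 552A came without MV411 552A replicate 2 or MV411 DMSO replicate 2, and the highest without Kasumi1 Combo replicate 1, with 17 without its replicate 2. With the offset the counts of pairs were 64 with 552A, 162 with ATRA and 203 with Combo. With 552A it was 21 without the 5 or the 8 libraries and 12 with DESeq2. Libraries were not treated as paired, because the labels give a replicate number no shared origin and not every correlation of same-numbered deviations passed 0.1 (line medians 0.02 to 0.55, all -0.89 to 0.96). With a replicate block the counts were 16, 107 and 138, and with the block and the offset 92, 166 and 212. The test between lines gave 0 with 552A without the filter, 27 with 552A with the offset and 44 with Combo with the offset. The causes were not tested. With 2 replicates a group, small changes within a line could be missed.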
